A study of Mus musculus with 12 samples.

Results

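Matrix metalloproteinases are zinc enzymes that cut collagens, elastin and other components of the extracellular matrix, and the tissue inhibitors of metalloproteinases bind their active site and block them. Secreted members are made as inactive proenzymes and membrane-type members stay anchored on the cell that makes them. In tumors both kinds of protein are known from macrophages, neutrophils and stromal cells. The 10 genes described here were given by name and are the gelatinases *Mmp2* and *Mmp9*, the collagenases *Mmp8* and *Mmp13*, the macrophage elastase *Mmp12*, the membrane-type enzyme *Mmp14*, the less studied secreted enzyme *Mmp19*, and the inhibitors *Timp1*, *Timp2* and *Timp3*. All 10 were among the 31053 genes of the expression matrices.

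The cells came from spontaneous mammary tumors of mice carrying the PyMT oncogene under the MMTV promoter, which is active mainly in mammary epithelium. Animals were either wild-type for the protease-activated receptor PAR2 or carried the PAR2 G37I mutation in *F2rl1*, on a B6 background, and the labels name no further treatment or age. CD11c-selected myeloid cells from late-stage tumors and CD4/CD8-selected T cells from mid-size tumors were isolated with beads, frozen, and profiled on the 10x Genomics platform, with 3 samples per genotype for each selection. Each deposited matrix pooled 6 samples under barcodes with no sample name, so each was treated as 1 sample, the genotypes were not compared, and no p-values were computed.

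*Mmp12* and *Mmp13*, both abundant in the macrophages below, lie side by side in a run of 10 metalloproteinase genes on mouse chromosome 9 that also holds *Mmp8* (GRCm38, GENCODE M21, chr9:7272514-7699585). *Mmp13* covers chr9:7272514-7283331, *Mmp12* chr9:7344381-7369499 and *Mmp8* chr9:7558456-7568485, each on the plus strand. The other members are scattered: *Mmp2* at chr8:92827291-92853420, *Mmp9* at chr2:164940780-164955850, *Mmp14* at chr14:54431612-54445364, *Mmp19* at chr10:128790910-128800824, and *Timp2* on the minus strand at chr11:118301069-118355740. *Timp1* (chrX:20870166-20874735) and *Timp3* (chr10:86300372-86349506) lie inside the oppositely transcribed genes *Syn1* and *Syn3*. *Syn1* had 382 UMIs (unique molecular identifiers, each counting 1 captured transcript) and *Syn3* 64 UMIs in the CD11c matrix, against 4670 for *Timp1* and 3820 for *Timp3*. *Mmp1b*, which overlaps the end of *Mmp12* on the other strand, had 0 UMIs in both matrices.

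The RefSeq promoter table (GRCm38.p6) held 7 of the 10 members, with 2 start sites for *Mmp12*. The heptamer TGACTCA, the classic AP-1 element, was searched on both strands (TGAGTCA on the other) in the 120 bases before each start. It was present for 2 members, *Mmp13* and the downstream start of *Mmp12*, and 2.30% of 32851 promoters held it in the same window. Both sequences are printed because these neighbours were the collagenase and the elastase detected in the same macrophages. They read 5′ to 3′ on the plus strand and the capitals mark the heptamer, which begins 35 bases before the *Mmp13* start and 44 bases before the *Mmp12* start. No factor binding was measured here.
Mmp13, chr9:7272394-7272513: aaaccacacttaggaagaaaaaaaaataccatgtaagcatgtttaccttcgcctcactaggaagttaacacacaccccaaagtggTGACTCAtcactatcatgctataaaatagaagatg
Mmp12, chr9:7347254-7347373: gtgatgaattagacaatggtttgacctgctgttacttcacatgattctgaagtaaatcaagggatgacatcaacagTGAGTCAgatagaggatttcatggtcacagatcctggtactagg

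After cells with under 200 detected genes were left out, 11639 CD11c-selected cells (123642015 UMIs, median 7943 per cell) and 22806 CD4/CD8-selected cells (135965765 UMIs, median 4361) remained. Cells were gated on raw UMIs of marker genes, none of them a member. In the CD11c matrix 6911 cells fell in 7 macrophage gates, each named by its genes, and 15 gates of all kinds held at least 50 cells. The *Retnla*/*Ear2*/*Fn1* gate was counted among the 7 but, unlike the others, did not require the macrophage markers. The 7 macrophage markers summed to 4565 UMIs per 1000000 in it, against 13952 in macrophages without a further gate. Every marker of the own list was detected in each of these gates, and the gates differed in depth, with 2779 UMIs in the median cell of the 149 neutrophils and 21615.5 in that of the 544 *Gpnmb*/*Spp1* macrophages. Of the remaining cells, 99 met more than one lineage and were set aside and 2515 shallow cells (median 1266 UMIs) met none. The barcode order showed 6 runs per matrix, which could not be tied to samples and serve below only to show how levels varied. Within the CD11c matrix 76 barcodes occurred more than once, within the CD4/CD8 matrix 51, and 92 barcodes occurred in both. Run 4 of the CD11c matrix stood apart, with 360 cells, 0 ungated cells and 30.8% of its cells in the *Retnla*/*Ear2*/*Fn1* gate against 8.71% in the other runs. Its cells were also much deeper, with a median of 31161.5 UMIs against 6290 to 9285.5 in the other runs. As the gates use raw UMIs, this depth bears on how its cells were gated. Leaving it out moved 3 of 85 levels of at least 20 UMIs by over 1.5 times, and these are given below. Levels are UMIs per 1000000 UMIs of the gate (CPM), with 95% Poisson intervals that cover counting error only, and they were not compared between genes.

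The 7 macrophage gates held 68.0% of all UMIs of the CD11c matrix. They held 92.9% of the *Mmp8* UMIs (exact binomial 95% interval 90.2 to 94.995), 90.5% of *Mmp13*, 90.4% of *Mmp12*, 88.7% of *Timp2*, 87.3% of *Mmp19* and 79.5% of *Mmp14*. They held 47.3% of *Mmp9*, 44.8% of *Mmp2* and 39.7% of *Timp1*, and 1.73% of *Timp3* (interval 1.34 to 2.19). The 60 fibroblasts had 0.709% of all UMIs and held 23.6% of *Mmp2*, 20.7% of *Timp1* and 22.7% of *Timp3*. Cells of several lineages held another 25.8% of *Mmp2*, 18.7% of *Timp1* and 26.0% of *Timp3*, so the share of a single lineage is less certain for these 3 genes than for the others.

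**Figure D1:**
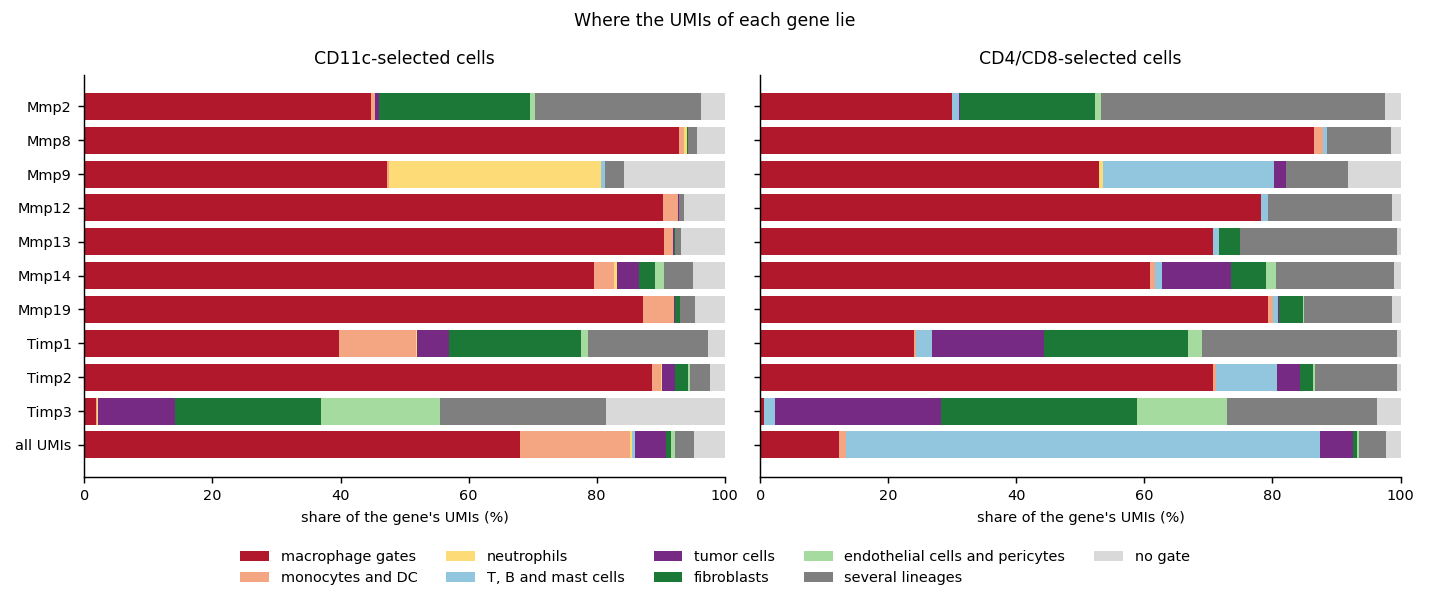
Share of the UMIs of each gene (percent, horizontal axis) in groups of gates of the CD11c-selected (left) and CD4/CD8-selected cells (right), with the share of all UMIs in the bottom bar. Macrophage gates held 68.0% of all UMIs on the left and 12.2% on the right, and *Timp3* had 1.73% and 0.621% of its UMIs there.

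**Figure D2:**
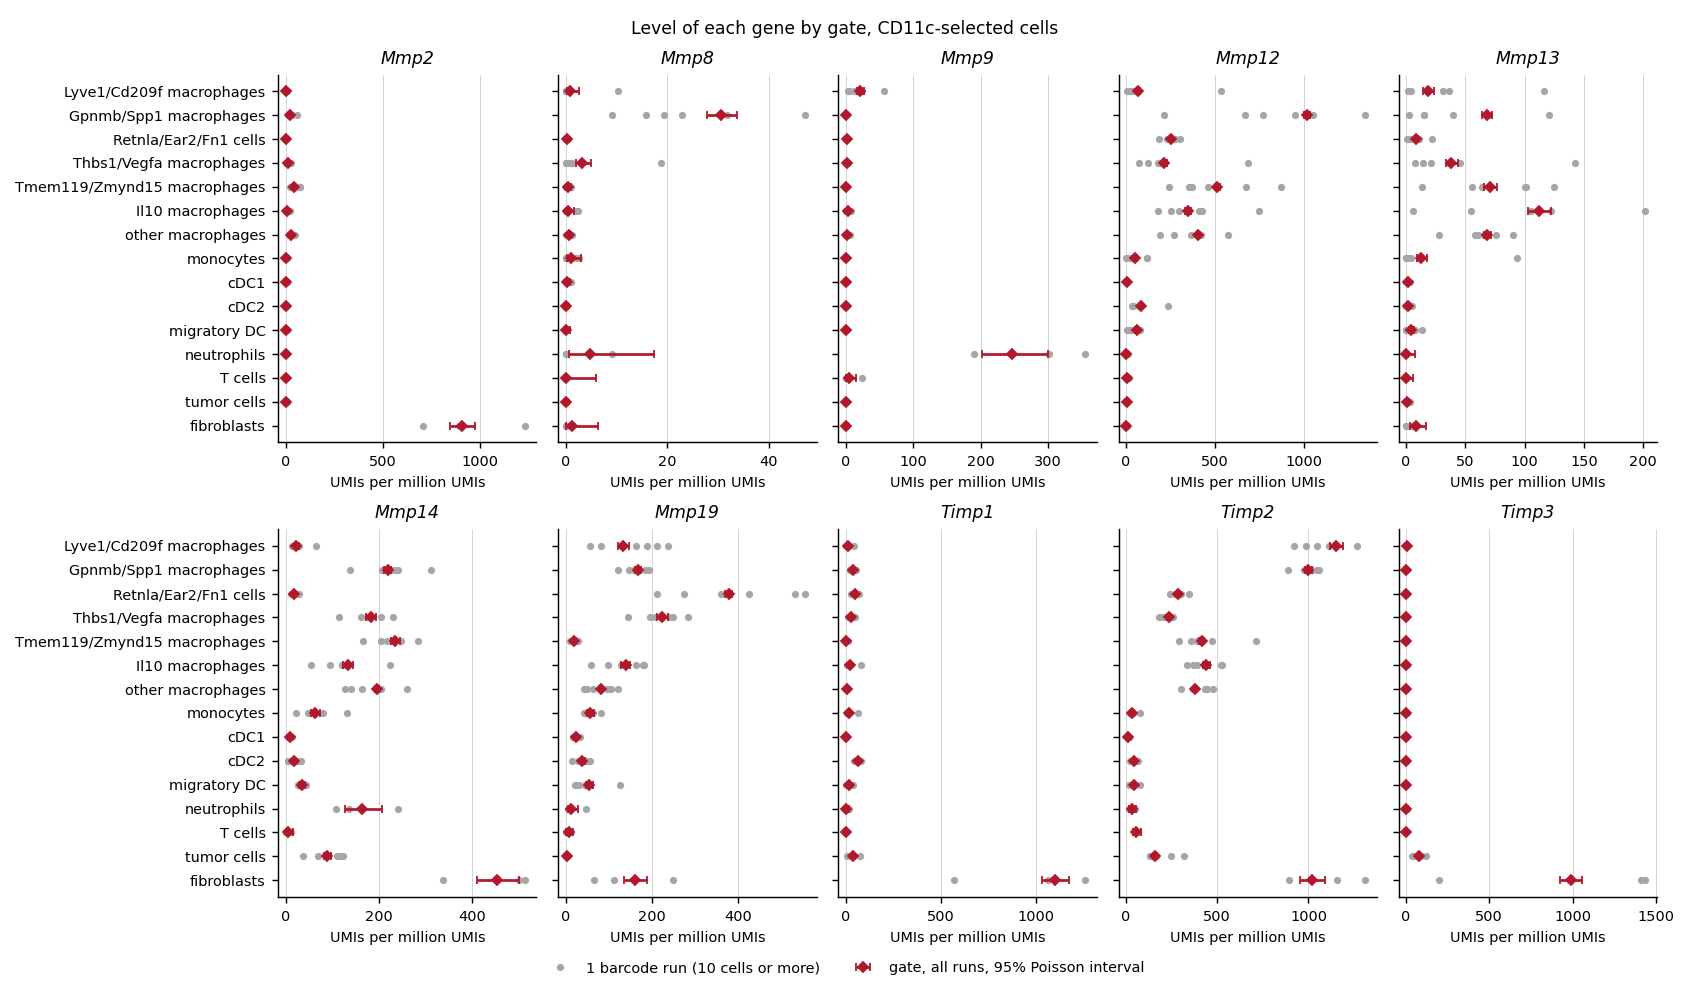
Level of each gene (CPM, UMIs per 1000000 UMIs of the gate, linear axes that differ between panels) in the 15 gates with at least 50 CD11c-selected cells. Diamonds are whole gates with 95% Poisson intervals and grey points are barcode runs with at least 10 cells of the gate. *Mmp12* was highest in *Gpnmb*/*Spp1* macrophages (1018), *Mmp9* in neutrophils (247), *Mmp19* in *Retnla*/*Ear2*/*Fn1* cells (378), *Timp2* in *Lyve1*/*Cd209f* macrophages (1153) and *Timp3* in fibroblasts (989).

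*Mmp12*, which encodes macrophage elastase, was spread over the macrophage gates with its highest level in *Gpnmb*/*Spp1* macrophages, cells marked by *Gpnmb*, *Spp1*, *Arg1*, *Atp6v0d2* and *Trem2*. There it reached 1018 CPM (95% interval 1001 to 1036; 13557 UMIs). By barcode run the level was 213, 769, 668, 1056, 1344 and 953. The level was 514 (499 to 530) in *Tmem119*/*Zmynd15* macrophages, 407 (400.0 to 415) in macrophages without a further gate, 349 in *Il10* macrophages, 252 in *Retnla*/*Ear2*/*Fn1* cells and 216 in *Thbs1*/*Vegfa* macrophages. *Gpnmb*/*Spp1* cells were 2.50 times (2.44 to 2.56) above the macrophages with no further gate, called other macrophages from here on, and above them in 6 of 6 runs. Against *Tmem119*/*Zmynd15* macrophages they were higher in 4 of 6 runs, so the order of these 2 gates varied between runs.

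The *Lyve1*/*Cd209f* macrophages, which carry markers known from tissue-resident macrophages, had the lowest *Mmp12* of the macrophage gates at 67.6 (59.0 to 77.0). Of their 225 *Mmp12* UMIs, 156 lay in run 5, and the level was 22.7 without that run and 123 without run 4. In each of 6 runs it was below that of other macrophages. Among dendritic cells *Mmp12* was 85.1 (78.5 to 92.2) in cDC2 and 3.45 (2.23 to 5.09) in cDC1, higher in cDC2 in 6 of 6 runs. The summed level of the 7 macrophage markers was 446 in cDC2 and 200.1 in cDC1, against 13952 in other macrophages; the part of macrophage RNA in this difference was not tested. Migratory DC had 59.1, or 33.6 without run 4. Tumor cells, T cells and neutrophils had 5.13, 6.03 and 2.40, the last from 1 UMI.

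*Mmp12* UMIs were concentrated in few cells. Of the 544 *Gpnmb*/*Spp1* macrophages, 305 had no *Mmp12* UMI, and the 55 cells with the most, each with at least 51, held 87.6% of the gene's UMIs in the gate. One cell held 1006. *Timp2* in the same gate was spread more evenly, with a median of 15.5 UMIs per cell and 36.95% of its UMIs in its own top 55 cells, and *Mmp14* had 29.0% there. In other macrophages the top 10% of cells by *Mmp12* held 86.9% of that gene's UMIs.

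**Figure D3:**
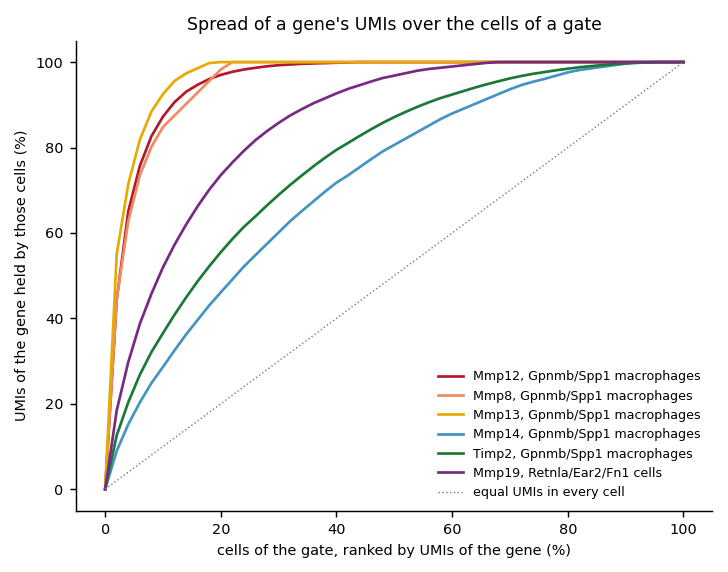
Cells of a gate ranked by UMIs of the gene (percent of cells, horizontal axis) against the percent of the gene's UMIs they hold, CD11c-selected cells. *Mmp12*, *Mmp8* and *Mmp13* curves climb steeply, with 87.6%, 85.0% and 92.8% of UMIs in the top 10% of cells, while *Timp2* and *Mmp14* lie closer to the dotted line of equal UMIs.

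The cells richest in *Mmp12* also held most of the *Mmp13* UMIs. These 55 cells had 15.2% of all UMIs of the *Gpnmb*/*Spp1* gate, but 74.7% of *Mmp13* and 49.5% of *Mmp8*. *Mmp13* was at 335 CPM in them and at 20.4 in the other 489, a ratio of 16.4 (14.1 to 19.2), and 42 of 55 against 58 of 489 cells had a UMI of it. *Mmp8* was at 99.8 and 18.2, a ratio of 5.47 (4.48 to 6.67), with a UMI in 27 of 55 and 89 of 489 cells. *Mmp14* (229 and 217), *Mmp19* (195 and 162) and *Timp2* (870.4 and 1023) differed by less than 1.5 times between the same cells, while *Timp1* (20.3 against 42.4) and *Mmp2* (11.9 against 23.1, ratio 0.513, 0.323 to 0.780) were lower in the *Mmp12*-rich cells. The *Mmp2* level in the latter rested on 24 UMIs, and similar shares of cells had one, 10 of 55 and 87 of 489. Of these 55 cells, 29 lay in run 5. With that run left out and the top 10% drawn again, the ratios were 8.12 for *Mmp13* (6.30 to 10.49) and 2.58 for *Mmp8* (1.81 to 3.63).

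The same ranking in gates that share no cells with it gave like directions for *Mmp13*. In other macrophages the 373 cells richest in *Mmp12* had 6.25 times (5.72 to 6.84) the *Mmp13* level of the rest, in *Tmem119*/*Zmynd15* macrophages 2.15 times (1.76 to 2.62), and in *Gpnmb*/*Spp1* macrophages of the CD4/CD8 matrix 4.27 times (2.78 to 6.46). *Mmp8* was 2.34 times higher (1.58 to 3.40) in the last of these and had too few UMIs in the other macrophages, 18 in all, to compare. The lower *Mmp2* did not recur in all of them. Its ratio was 1.11 (0.903 to 1.35) in other macrophages and 0.672 (0.442 to 0.984) in *Tmem119*/*Zmynd15* macrophages. In *Gpnmb*/*Spp1* macrophages of the CD4/CD8 matrix it was 0.993 (0.741 to 1.31). With every cell thinned to 2000 UMIs, so that deeper cells had no advantage, *Mmp13* was detected in 14.6% of 1241 macrophages with an *Mmp12* UMI (12.7 to 16.7) and in 4.03% of 5235 without (3.51 to 4.599). In the *Gpnmb*/*Spp1* gate the thinned shares were 15.7% of 134 and 2.46% of 407 cells for *Mmp13*, and 9.70% and 1.72% for *Mmp8*. For *Timp2* they were 79.1% and 74.7%.

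**Figure D4:**
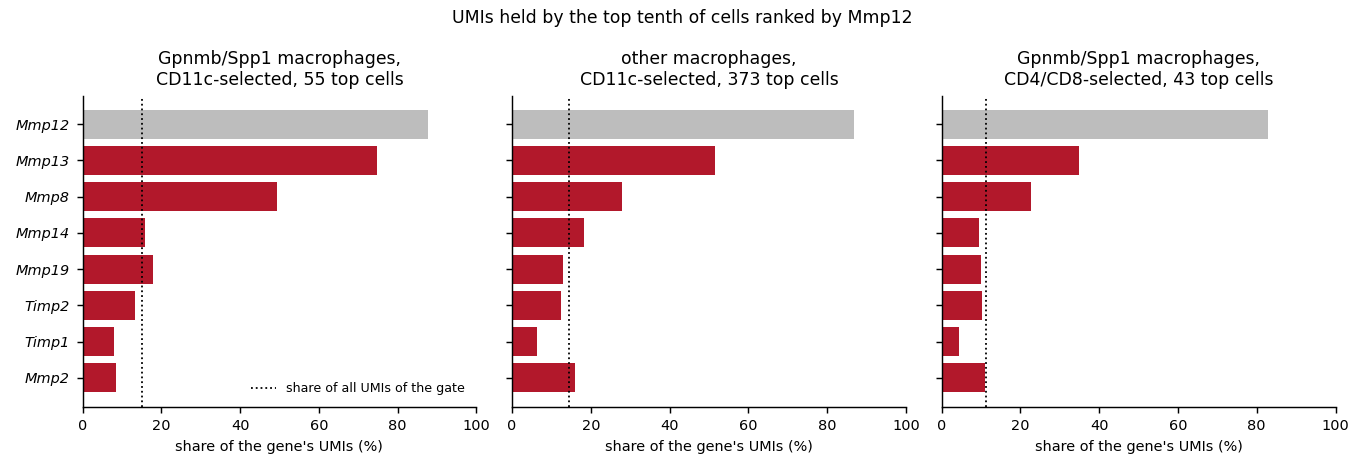
Percent of the UMIs of each gene (horizontal axis) held by the 10% of cells with most *Mmp12* UMIs in 3 groups of macrophages. The grey *Mmp12* bar is high by construction, and the dotted line is the share of all UMIs of the gate in those cells. *Mmp13* lay beyond the line in all 3 panels (74.7%, 51.6% and 34.9%) and *Timp2* below it (13.2%, 12.5% and 10.1%).

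*Mmp13*, a collagenase of fibrillar collagen, was highest in the *Il10* macrophages at 112 (103 to 123). By run its level there was 106, 201, 104, 6.05, 122 and 55.2. Other macrophages had 68.5, *Tmem119*/*Zmynd15* macrophages 71.1, *Gpnmb*/*Spp1* macrophages 68.2 and *Thbs1*/*Vegfa* macrophages 38.3. The *Il10* gate was above other macrophages in 4 of 6 runs, the run ranges of these gates overlapped, and the levels of *Gpnmb*/*Spp1* and *Thbs1*/*Vegfa* macrophages were 33.1 without run 5 and 20.7 without run 6. *Retnla*/*Ear2*/*Fn1* cells stood lower, at 8.33 (7.11 to 9.69) and below other macrophages in 6 of 6 runs. *Lyve1*/*Cd209f* macrophages had 18.3, or 33.2 without run 4 and 8.89 without run 5. cDC1, cDC2 and tumor cells had 1.24, 1.83 and 1.16, and neutrophils and T cells had 0 UMIs, which allows up to 7.19 and 6.03.

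*Mmp8*, known as the neutrophil collagenase, had 82.9% of its 492 UMIs in *Gpnmb*/*Spp1* macrophages. Its level there was 30.6 (27.7 to 33.8), and by run 9.01, 19.3, 31.8, 22.8, 47.1 and 15.8. Without run 5, which held 251 of the 408 UMIs, it was 19.7. Other macrophages had 0.626 (0.371 to 0.989), a ratio of 49.0 (30.6 to 83.5), and lay below in 6 of 6 runs. The 149 neutrophils had 2 *Mmp8* UMIs, both in 1 cell, or 4.79 CPM with an interval from 0.581 to 17.3. The neutrophil markers *S100a8*, *S100a9*, *Csf3r*, *Cxcr2* and *Retnlg* summed to 26993 CPM in the neutrophil gate and to 36.4 in the *Gpnmb*/*Spp1* gate. These markers defined the neutrophil gate, and macrophages that met it were set aside, so both sums follow from the gating. The part of neutrophil RNA in the *Mmp8* level was not tested.

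*Mmp9*, a gelatinase that neutrophils store in granules, was the member with the fewest UMIs, 311. Neutrophils held 33.1% of them with 0.337% of all UMIs. Their level was 247 (202 to 299), and in the 3 runs with at least 10 neutrophils it was 301, 355 and 191. A UMI was found in 36.9% of neutrophils, and in 30.4% of the 115 that could be thinned to 2000 UMIs, against 1.56% of the 64 T cells (median 4595 UMIs).

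Among macrophages *Mmp9* was highest in the *Lyve1*/*Cd209f* gate at 21.02 (16.4 to 26.6), or 18.0 without run 4. By run it was 18.3, 4.49, 12.02, 24.4, 3.42 and 55.8. This was 14.1 times (9.48 to 21.1) the level of other macrophages, 1.495 (0.980 without run 1), and higher in 6 of 6 runs. Only 24 of the 224 cells had a UMI of it. The same gate in the CD4/CD8 matrix, with 48 cells, had 112 (85.5 to 144) and a UMI in 41.7% of cells. *Gpnmb*/*Spp1* macrophages, the richest in *Mmp12*, had 1 *Mmp9* UMI, and *Tmem119*/*Zmynd15* macrophages had 0, which allows up to 0.363.

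*Mmp2*, the gelatinase known from mesenchymal cells, was highest in fibroblasts at 911 (848 to 976). The 3 runs with at least 10 fibroblasts had 1232, 896 and 707. The 23 pericytes had 101.4 (63.6 to 154) and the 28 endothelial cells 13.4 (5.38 to 27.6). Macrophage levels were 41.6 (37.3 to 46.2) in the *Tmem119*/*Zmynd15* gate, 26.0 in other macrophages, 21.4 in *Gpnmb*/*Spp1* and 10.97 in *Thbs1*/*Vegfa* macrophages. *Lyve1*/*Cd209f* macrophages had 2.70 and *Retnla*/*Ear2*/*Fn1* cells 1.40 (0.928 to 2.02). The latter were below other macrophages in 6 of 6 runs. The fibroblast markers *Col1a1*, *Col1a2*, *Col3a1*, *Dcn*, *Lum* and *Pdgfra* summed to 3.87 CPM in the *Tmem119*/*Zmynd15* gate, against 40235 in fibroblasts, and *Timp3* had 0 UMIs there. In the *Retnla*/*Ear2*/*Fn1* cells these markers summed to 7.38. Macrophages that met the fibroblast gate had been set aside, which limits both sums. The part of fibroblast RNA in the macrophage levels of *Mmp2* was not tested.

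*Mmp14*, the membrane-type enzyme that activates pro-*Mmp2* at the cell surface, was found both in stroma and in macrophages. Fibroblasts had 453 (409.5 to 499.8), the 28 endothelial cells 285 (241 to 334) and the 23 pericytes 337 (264 to 423). *Tmem119*/*Zmynd15* macrophages had 235 (225 to 246), with runs from 165 to 283, *Gpnmb*/*Spp1* macrophages 219, other macrophages 196, *Thbs1*/*Vegfa* macrophages 182 and *Il10* macrophages 133. In *Retnla*/*Ear2*/*Fn1* cells it was 18.5 (16.7 to 20.5) and in *Lyve1*/*Cd209f* macrophages 22.8 (18.0 to 28.6), both lower than other macrophages in 6 of 6 runs. Neutrophils had 163 (127 to 207), while their *Mmp12* was 2.40 and the 7 macrophage markers summed to 415 in them. Neutrophils that met the macrophage gate had been set aside, which limits this sum, and the part of macrophage RNA was not tested. Tumor cells had 88.2 (80.8 to 96.0) and cDC1 had 9.38.

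*Mmp14* was spread over most cells of these gates, with a UMI in 91.9% of *Gpnmb*/*Spp1* and 91.1% of *Tmem119*/*Zmynd15* macrophages. After thinning to 2000 UMIs the shares were 39.2% and 32.0%, against 3.09% in *Retnla*/*Ear2*/*Fn1* cells and 1.56% in T cells. Among all macrophages thinned in this way, *Mmp14* was detected in 40.6% of the 392 cells with *Mmp13* and in 23.0% of the 6084 without, a pool of gates that differ in both genes. Within other macrophages the shares were 45.9% (39.7 to 52.2) and 27.8% (26.2 to 29.4), and within *Gpnmb*/*Spp1* macrophages 45.2% (27.3 to 64.0) and 38.8% (34.6 to 43.2), where the intervals overlap.

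*Mmp19* followed another order, with its highest level in the *Retnla*/*Ear2*/*Fn1* cells, where *Mmp2*, *Mmp13* and *Mmp14* were low. Its level there was 378 (369 to 386), or 425 without run 4. By run it was 424, 554, 533, 211, 274 and 361. Those 1093 cells held 45.0% of its UMIs. *Thbs1*/*Vegfa* macrophages had 224, *Gpnmb*/*Spp1* macrophages 167, *Il10* macrophages 138, *Lyve1*/*Cd209f* macrophages 134 and fibroblasts 160 (134 to 189).

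The *Tmem119*/*Zmynd15* macrophages had the least *Mmp19* of the macrophage gates, 19.5 (16.6 to 22.7). The *Retnla*/*Ear2*/*Fn1* cells were 19.4 times (16.6 to 22.8) higher, and higher in 6 of 6 runs. They were also 4.64 times (4.43 to 4.87) above other macrophages, with run ratios between 4.03 and 5.85. For *Mmp14* the same cells were lower than the *Tmem119*/*Zmynd15* macrophages, at 18.5 against 235. Tumor cells had 1.99 *Mmp19* UMIs CPM.

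*Timp1*, an inhibitor known to respond to inflammatory signals, was highest in fibroblasts at 1101 (1033 to 1173). The 3 runs with at least 10 fibroblasts had 1062, 568 and 1256. Tumor cells had 39.2 (34.4 to 44.5), and among immune cells cDC2 came first with 62.0 (56.3 to 68.0), with runs from 42.3 to 78.0. The cDC1 had 0.414, from 3 UMIs, and lay below cDC2 in 6 of 6 runs. The macrophage gates were divided: *Retnla*/*Ear2*/*Fn1* cells had 46.0, *Gpnmb*/*Spp1* macrophages 39.1 and *Thbs1*/*Vegfa* macrophages 26.3, each above other macrophages (3.93, 3.24 to 4.72) in 6 of 6 runs. *Tmem119*/*Zmynd15* macrophages had 1.33 (0.664 to 2.38), or 0.645 without run 3. *Il10* macrophages had 21.1 and monocytes 18.0, which became 13.7 and 8.95 without run 5. The fibroblast markers summed to 2.93 CPM in *Gpnmb*/*Spp1* macrophages, 4.50 in cDC2, 7.38 in *Retnla*/*Ear2*/*Fn1* cells and 10.3 in other macrophages. Cells of these gates that met the fibroblast gate had been set aside, which limits these sums, and the part of fibroblast RNA was not tested.

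*Timp2*, which both inhibits metalloproteinases and takes part in the activation of pro-*Mmp2* by *Mmp14*, had the most UMIs of the 10 members, 45726. *Lyve1*/*Cd209f* macrophages had 1153 (1117 to 1190), with 1153, 1112, 919.9, 1268, 1048 and 989 by run. Fibroblasts had 1020.1 (954 to 1089) and *Gpnmb*/*Spp1* macrophages 999.99 (983 to 1017), with runs from 889 to 1060.4. These 3 gates overlapped in their runs. The first and the last were 3.05 times (2.94 to 3.17) and 2.65 times (2.58 to 2.72) above other macrophages (378), in 6 of 6 runs each.

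The remaining macrophage gates lay between 234 (*Thbs1*/*Vegfa*) and 440.5 (*Il10*). Monocytes had 35.3, cDC2 42.8, migratory DC 42.5 and cDC1 9.66. T cells of the CD11c matrix had 56.3 (37.4 to 81.3) and T cells of the CD4/CD8 matrix 30.8 (29.7 to 31.9), with runs from 22.0 to 42.0. In the latter, T cells had 109 *Timp2* UMIs per 100 UMIs of the 7 macrophage markers, against 9.31 in the macrophages of that matrix. For *Mmp12* the same values were 1.83 and 1.43, and for *Mmp14* 1.90 and 1.22, so *Timp2* stood in another proportion to the macrophage markers in T cells. *Timp1* (2.39 and 0.265), *Mmp2* (0.986 and 0.319), *Mmp9* (1.48 and 0.0337) and *Timp3* (1.44 and 0.00649) also had more UMIs per macrophage-marker UMI in T cells, and the part of free RNA from other cells was not tested. All other members were between 0.00994 and 0.676 CPM in those 18558 T cells.

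*Timp3*, the inhibitor that binds to the extracellular matrix, was nearly absent from immune cells. Fibroblasts had 989 (925 to 1057), pericytes 1508 (1349 to 1680) and endothelial cells 738 (666 to 815). Fibroblast runs were uneven, at 195, 1410.5 and 1434. Tumor cells had 76.9 (70.1 to 84.2) and were higher than other macrophages in 5 of 5 runs. The 7 macrophage gates together had 66 UMIs, 0.785 CPM, with the highest value, 4.81 (2.75 to 7.80), in *Lyve1*/*Cd209f* macrophages (2.25 without run 4). The 18.5% of *Timp3* UMIs that lay outside every gate were almost all in 22 cells with at least 5 UMIs each, which held 675 of 705. Their leading genes included *Krt5*, *Col17a1*, *Oxtr* and *Cnn1*, and 14 of the 22 had *Acta2*, 13 *Myh11*, 12 *Col17a1* and 11 *Krt5*. These genes are known from myoepithelial cells, but not from them alone. None of these 4 genes was found in all 22 cells, and their cell type was not tested. *Col1a1* had 3 UMIs and *Rgs5* 0. Both belong to the markers of the fibroblast and pericyte gates, which these cells did not meet, so their low counts follow from the gating. These cells were picked after their *Timp3* values were seen.

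Counting members past 2-fold between gates gave different sets for 3 macrophage gates against other macrophages. Of the 8 members with at least 50 UMIs in the 2 gates together, *Gpnmb*/*Spp1* macrophages had 5 higher by 2-fold or more (*Mmp8*, *Mmp12*, *Mmp19*, *Timp1*, *Timp2*) and 0 lower. Over all 10891 genes 5.44% were higher and 6.33% lower. *Lyve1*/*Cd209f* macrophages had 3 higher (*Mmp9*, *Timp1*, *Timp2*) and 4 lower (*Mmp2*, *Mmp12*, *Mmp13*, *Mmp14*), where 9.8% of 10514 genes were higher and 9.59% lower. *Retnla*/*Ear2*/*Fn1* cells had 2 higher (*Mmp19*, *Timp1*) and 3 lower (*Mmp2*, *Mmp13*, *Mmp14*), where 6.91% of 11068 genes were higher and 9.75% lower. The members were chosen with earlier results of these data known, so these counts describe them and test nothing.

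The CD4/CD8 matrix held 900 macrophages, and its gates are set beside those of the CD11c matrix because selection and tumor stage both differed. In the 422 *Gpnmb*/*Spp1* macrophages, 389 of them in 1 barcode run, *Mmp12* was 195 (187 to 203) beside 1018, and *Mmp13* 9.42 beside 68.2. The order of the CD11c matrix was turned over for *Mmp12*: other macrophages of the CD4/CD8 matrix had 249.5 (231 to 269), above the *Gpnmb*/*Spp1* gate. In the 2 runs with at least 10 cells of both gates, *Gpnmb*/*Spp1* macrophages had 169.7 and 197, and other macrophages 278 and 253. *Timp2* was 1694 (1670.3 to 1719) beside 999.99 and *Mmp14* 205 beside 219. *Mmp8* was 14.5 beside 30.6, and this gate again held most of its UMIs, 81.9%. Among the 303 other macrophages *Mmp2* was 66.2, *Mmp14* 157 and *Timp2* 695. The 46 fibroblasts had 694 for *Mmp2*, 763 for *Timp1* and 987 for *Timp3*, and the 231 tumor cells 95.9 for *Timp3* and 68.6 for *Timp1*.

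**Figure D5:**
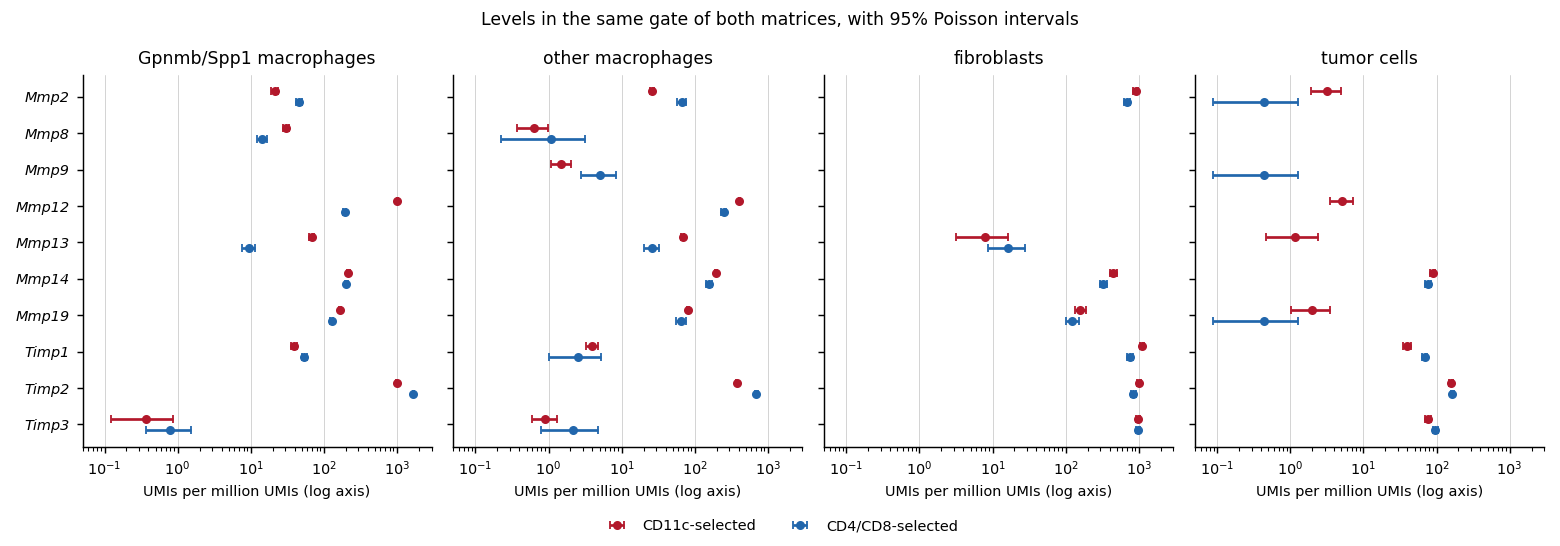
Level of each gene (CPM, log axis) in the same gate of CD11c-selected cells (red) and CD4/CD8-selected cells (blue), with 95% Poisson intervals and values under 3 UMIs left out. In *Gpnmb*/*Spp1* macrophages *Mmp12* was 1018 and 195, *Mmp13* 68.2 and 9.42 and *Timp2* 999.99 and 1694, while *Timp3* in fibroblasts was 989 and 987.

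Of 16 other metalloproteinase genes, 7 reached 50 UMIs in the CD11c matrix and 6 in the CD4/CD8 matrix. In the CD11c matrix *Mmp3*, *Mmp10*, *Mmp11*, *Mmp23* and *Mmp27* were highest in fibroblasts, *Mmp15* in tumor cells and *Mmp25* in migratory DC (65.0, 57.1 to 73.7). *Mmp3*, a stromelysin from the chromosome 9 run of genes, had 1167 in fibroblasts and 0 UMIs in *Gpnmb*/*Spp1* macrophages, which allows up to 0.225. *Mmp10* and *Mmp27*, from the same run, had 48 and 69 UMIs in *Gpnmb*/*Spp1* macrophages and 3 and 1 in other macrophages, although those are the larger gate. The fibroblast level of *Mmp27*, 11.4 (5.47 to 20.98), rested on 10 UMIs and its interval overlapped that of *Gpnmb*/*Spp1* macrophages, 5.18 (4.03 to 6.56). In the CD4/CD8 matrix *Mmp27* was 6.58 in *Gpnmb*/*Spp1* macrophages and 6.26 in fibroblasts. In the CD11c matrix *Mmp10* was found in 6 cells of the *Gpnmb*/*Spp1* gate, so its level there rested on very few of them.

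Among 3 further inhibitors *Reck* alone reached 50 UMIs, with its highest level in fibroblasts (54.8). Of 9 genes for activation, docking and clearance 8 reached 50 UMIs in each matrix, and the levels that follow are those of the CD11c matrix unless named otherwise. *Furin*, the protease that activates pro-*Mmp14*, was highest in *Lyve1*/*Cd209f* macrophages (556), *Plau* in *Il10* macrophages (179), *Plaur*, its receptor, in *Thbs1*/*Vegfa* macrophages (587) and *Bsg*, an inducer of metalloproteinases, in *Gpnmb*/*Spp1* macrophages (469, 457 to 480.4). *Bsg* in tumor cells, 455 (439 to 473), overlapped the last value, and in the CD4/CD8 matrix *Bsg* was highest in fibroblasts (483) and *Plaur* in plasmacytoid DC (643). *Lrp1*, which takes up metalloproteinases with their inhibitors, and *Plat* were highest in fibroblasts (941 and 583), *Itgb3* in tumor cells (55.1) and *Cd44* in neutrophils (935). The CD4/CD8 matrix differed here too, with *Plau* highest in *Tmem119*/*Zmynd15* macrophages (98.2), *Cd44* in plasmacytoid DC (636) and *Itgb3* in fibroblasts (37.6). Its 22 *Il10* macrophages, 28 *Thbs1*/*Vegfa* macrophages and 3 neutrophils were too few to be ranked.

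Across the 15 gates, the genes with the most similar pattern were taken from 9756 genes with at least 500 UMIs, by Pearson's r of log2 levels; gates share cells of the same pool and r is a description. For *Timp3* they were *Aebp1* (0.99), *Serpinh1* (0.99), *Dcn* (0.98), *Tnc* (0.98) and *Wisp2* (0.98), and for *Mmp2* *P3h3* (0.97), *Col14a1* (0.96), *Emilin1* (0.91) and *Il11ra1* (0.90). *Dcn* is a marker of the fibroblast gate, so its pattern follows in part from the gating. For *Mmp8* the first was *Gpnmb* (0.85), a marker of the gate, followed by *Galns*, *Lrpap1*, *Smpdl3a* and *Ap3s1*. *Mmp12* went with *Abhd12* (0.95), *Creg2*, *Dppa3*, *Cyfip1* and *Plxna4os1*, and *Mmp13* with *Slc7a8* (0.94), *Uap1l1*, *Cmklr1*, *Cebpa* and *Lgmn*. *Mmp14* went with *Rilpl1* (0.92), *Armc9*, *Gm14005*, *Cd276* and *Cpd*. *Mmp19* went with *Adora2b* (0.86), *Pltp*, *Neurl2*, *Metrnl* and *Lpl*, *Timp1* with *Oaf* (0.88), *Ncs1*, *Phldb1*, *Fn1* and *Sphk1*, and *Timp2* with *Mocs2* (0.96), *Abcc5*, *Plod1* and *Glul*. The same limit holds for *Fn1*, a marker of the *Retnla*/*Ear2*/*Fn1* gate. *Mmp9* went with *Zcchc6* (0.93), *C330007P06Rik*, *Lrif1*, *Calm2* and *Cr1l*.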

How the data were processed

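The authors processed the 10x reads with Cell Ranger 3.0.2 against mm10, as listed in the submitters' processing notes, and deposited 1 matrix of UMI counts for each bead selection, each pooling 6 samples. The values used here are these deposited counts, with no normalization. Genes were matched by symbol to GENCODE M21 (98.0% of symbols found). Barcodes carry no sample name, so no sample or genotype was assigned. Barcodes with fewer than 200 detected genes were dropped and the rest gated on summed marker UMIs. Members and marker lists were chosen with earlier results of these data known, and the UMI minimums of the gates were set on marker UMIs alone. Doublets were not called; cells meeting several lineages were set aside. A level is the sum of a gene's UMIs per 1000000 UMIs of the gate, with an exact Poisson interval; shares have exact Clopper-Pearson intervals; 0 UMIs allow up to 3. Ratios of 2 levels have exact conditional intervals. Genes past 2-fold were counted with 1 UMI added. Thinning drew 2000 UMIs per cell and could use 9429 of the 11639 CD11c-selected cells. Intervals cover counting error at 95% and not the spread between mice. Every member was described in every gate of at least 50 CD11c-selected cells; for likeness, the 5 genes with the highest r were taken per member, of which a few are not reported here. Total UMIs per barcode run were from 13314063 (run 4, with the fewest but deepest cells) to 24231244 in the CD11c matrix. In the CD4/CD8 matrix they were from 16203038 to 30168668. Gating and intervals were tested on simulated cells. These covered only some of the gates and had no free RNA and no spread of a gene's rate within a cell type. The test therefore does not show how gates or intervals perform on the real cells. Alternatives covered the gate minimums, the mean over cells, cell filters, cells of several lineages, thinning and each barcode run left out. Analyses used Python 3.11.15, scipy 1.17.1 and matplotlib 3.10.9.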

Additional observations from a re-analysis of the deposited data

How the results depend on the processing

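No paired analysis was possible because neither matrix names its samples. The highest gate was sought among gates of at least 50 CD11c-selected cells. This left out the pericytes, which lay above fibroblasts for *Timp3*. The CD4/CD8 matrix, where *Mmp12* was higher in other macrophages than in *Gpnmb*/*Spp1* macrophages, was not among the settings. Within these limits, the 110 member levels recomputed under other settings kept the same highest gate. With the marker minimums halved, the levels in that gate were 812 for *Mmp2*, 100.8 for *Mmp13*, 368 for *Mmp19*, 894 for *Timp1* and 1088 for *Timp3*; doubled, they were 990.5 for *Mmp12*, 86.5 for *Mmp13*, 403 for *Mmp19*, 941 for *Timp1* and 1204 for *Timp2*. As a mean over cells they were 813 for *Mmp2*, 821 for *Mmp12*, 407 for *Mmp19* and 782 for *Timp3*, and in cells with at most 10% mitochondrial UMIs 1001 for *Mmp2*, 363 for *Mmp19*, 964 for *Timp1* and 835 for *Timp3*. The share of UMIs in macrophage gates with minimums halved was 93.0% for *Mmp12*, 94.6% for *Mmp13*, 81.8% for *Mmp14*, 89.8% for *Mmp19*, 89.0% for *Timp2* and 3.01% for *Timp3*. Doubled, it was 83.1% for *Mmp8*, 82.4% for *Mmp12*, 82.7% for *Mmp13*, 74.0% for *Mmp14*, 79.9% for *Mmp19*, 35.3% for *Timp1* and 85.7% for *Timp2*. With cells of several lineages given to the largest, it was 47.8% for *Mmp2*, 91.1% for *Mmp12*, 80.3% for *Mmp14*, 88.0% for *Mmp19*, 89.6% for *Timp2* and 4.87% for *Timp3*. Thinned to 2000 UMIs, cells of the highest gate with a UMI were 74.5% for *Mmp2*, 3.70% for *Mmp8*, 24.8% for *Mmp12*, 8.49% for *Mmp13*, 49.0% for *Mmp14*, 34.8% for *Mmp19*, 70.6% for *Timp1* and 84.7% for *Timp2*, as fewer UMIs leave fewer cells with one. With each barcode run left out in turn, levels ranged from 785 to 1013 for *Mmp2*, 19.7 to 34.7 for *Mmp8*, 226 to 309.6 for *Mmp9*, 800.5 to 1076 for *Mmp12*, 87.7 to 126 for *Mmp13*, 338 to 425 for *Mmp19*, 999 to 1245 for *Timp1*, 1052 to 1179 for *Timp2* and 766 to 1299 for *Timp3*. Shares in macrophage gates ranged from 40.2% to 53.0% for *Mmp2*, 38.1% to 55.0% for *Mmp9*, 89.4% to 91.7% for *Mmp13*, 77.0% to 82.2% for *Mmp14*, 86.8% to 88.1% for *Mmp19*, 32.9% to 47.6% for *Timp1*, 87.1% to 90.2% for *Timp2* and 1.25% to 2.30% for *Timp3*. The cause of the other differences was not tested. Levels of genes with few UMIs, *Mmp8* outside 1 gate and *Mmp9* outside neutrophils and *Lyve1*/*Cd209f* macrophages, were limited by depth.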
